A study of Caenorhabditis elegans with 2 samples.

Results

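The *ceh* genes encode homeodomain transcription factors of *C. elegans*. They were taken as all protein-coding genes whose name begins with *ceh-* in Ensembl release 115 on WBcel235, except *ceh-13*, which left 62 of the 19985 protein-coding genes. EGL-43, a zinc finger protein related to mammalian EVI1, was precipitated from whole L3 larvae that carried *gfp* in the endogenous *egl-43* gene and were labelled wild-type. The study lists its *egl-43::gfp* allele as zh136, and its ChIP methods do not name the strain number. The strain it lists with that allele also carries an *rrf-3* mutation, *lam-1::gfp* and an mCherry reporter. Whether that strain was used is not stated. The larvae had grown for 27 h at 25°C, were fixed with formaldehyde and EGS, and the antibody was directed against GFP. Both isoforms of the protein carried the tag. There was 1 condition with 2 replicates from separately grown populations. No input and no precipitation from untagged larvae was analysed here, so no comparison between groups and no test was possible. Per the study, the tagged protein was seen mostly in the somatic gonad and in a set of head and tail neurons, and a peak from whole larvae does not tell in which of these cells the DNA was bound.

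A homeodomain is a small helical domain that binds short DNA sites, and the genes that encode one fall into classes by the sequence of this domain and by what is joined to it. ANTP genes include the NK, BarH and Distal-less families. PRD genes include the Otx, Rax and Phox2 families, POU, LIM and CUT genes carry a further domain, SINE genes are relatives of *Drosophila sine oculis*, and TALE genes include the Pbx family, whose products bind DNA together with Hox proteins. In worms, many homeobox genes fix the identity of single neuron types, and others act in pharynx, muscle, skin and gonad.

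The deposited lists give peaks, which are places with a local excess of reads, for each replicate. Each peak has a fold enrichment, the ratio of reads at the summit of the peak to the background estimated by the peak caller. Replicate 1 had 8394 peaks with a fold enrichment from 1.73 to 19.8 (median 3.66), and replicate 2 had 10925, from 1.67 to 19 (median 3.71). Overlapping peaks (1 bp or more) were joined into regions, and the 7259 regions that held a peak of each replicate were called shared. A gene was credited with every peak or region that touched its body or a stretch of 5000 bp before its start. Read totals are not part of the lists, and the depth is therefore unknown.

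By this rule, 23 of the 62 *ceh* genes had a shared EGL-43 region (37.1%). Of all protein-coding genes, 34.4% had one, so the share of the *ceh* genes lay close to the background. A further 2 genes (3.23%), *ceh-32* and *ceh-88*, had peaks of replicate 2 only, where 10.6% of all protein-coding genes had peaks but no shared region. The list of replicate 1 thus reached 23 *ceh* genes (37.1%, beside 36.6% of all protein-coding genes). The list of replicate 2 reached 25 (40.3%), beside 43.1%. The other 37 *ceh* genes had no peak in either list. Among the 23 genes, 15 had 1 shared region, 5 had 2 and 3 had 3, and 8 of 62 (12.9%) thus had at least 2, beside 13.4% of all protein-coding genes, while the 3 with 3 regions (4.84%) compare with 5.75% that had 3 or more.

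These 34 pairings of gene and region involved 31 distinct regions, since 3 regions counted for a pair of neighbouring *ceh* genes. In 30 of the 34 pairings the summit lay upstream of the gene, in 2 it lay in an intron and in 2 in an exon of the longest transcript. The window added 5000 bp upstream to a median body of 2735 bp. This split was not counted for all protein-coding genes, so it cannot be called a trait of the *ceh* genes. By the regions, 6 *ceh* genes (9.68%) were touched in their body, where 12.1% of all protein-coding genes were. Within the body or 500 bp upstream it was 12 (19.4%), beside 18.3%. With 2000 bp upstream it was 18 (29.0%), beside 25.2%. A window of 5000 bp often holds the start of another gene. Of the 31 regions, 23 were nearer to the start of a *ceh* gene than to any other protein-coding start. These belonged to 17 genes (27.4%), and 19.8% of all protein-coding genes had a region that was nearest to their own start.

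**Figure D1:**
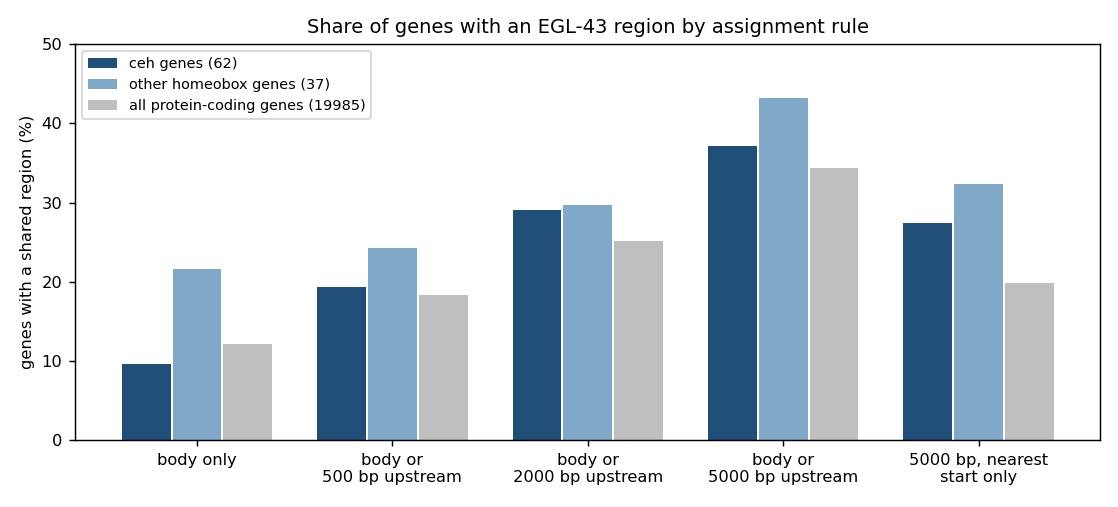
Percentage of genes (vertical axis) with a shared region under 5 assignment rules (horizontal axis), for the 62 *ceh* genes, 37 other homeobox genes and all 19985 protein-coding genes. The *ceh* bars lie between 9.68% for the body alone and 37.1% for the body or 5000 bp upstream, and the bars of all genes between 12.1% and 34.4%.

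The *ceh* genes differ from the rest in length and spacing. Over all protein-coding genes, the share with a region rose with length and was higher without a near upstream neighbour. Among the *ceh* genes it was highest for bodies of 2000 to 4000 bp. The *ceh* genes had a median body of 2735 bp (all protein-coding genes, 2026 bp). In 14 of them (22.6%) no other protein-coding body lay within 5000 bp upstream, against 13.6% of all genes. Within the group without such a neighbour, 7 of 14 *ceh* genes (50%) had a shared region, beside 43.8% of all such genes. With a neighbour, it was 16 of 48 (33.3%) beside 32.9%. A region nearest to the own start was found for 6 of 14 (42.9%) without a neighbour, beside 39.4%, and for 11 of 48 (22.9%) with one, beside 16.7%. For bodies of up to 2000 bp the counts were 7 of 24 (29.2%) beside 26.7%, for 2000 to 4000 bp 11 of 24 (45.8%) beside 35.0%, and for longer bodies 5 of 14 (35.7%) beside 51%. The part of length and spacing in the share of the *ceh* genes was not tested. Among the chromosomes, the percentage was lowest on V, with 2 of 12 *ceh* genes (16.7%, beside 23.4% of all genes there), and highest on II, with 7 of 13 (53.8%, beside 32.9%), and X held 7 of 18 (38.9%, beside 44.7%).

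The strongest regions reached a fold enrichment of about 10. Ranked by the lower of the replicate values, 6 *ceh* genes (9.68%) had a region of at least 6 in both replicates, beside 9.24% of all protein-coding genes, and 2 (3.23%) had one of at least 10, beside 1.77%. In 3 of these 6 genes, *ceh-24*, *ceh-5* and *ceh-8*, the strongest region was nearer to the start of another gene. Over the 23 genes, the median of the strongest region was 4.23, and over all protein-coding genes with a shared region it was 4.36.

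**Figure D2:**
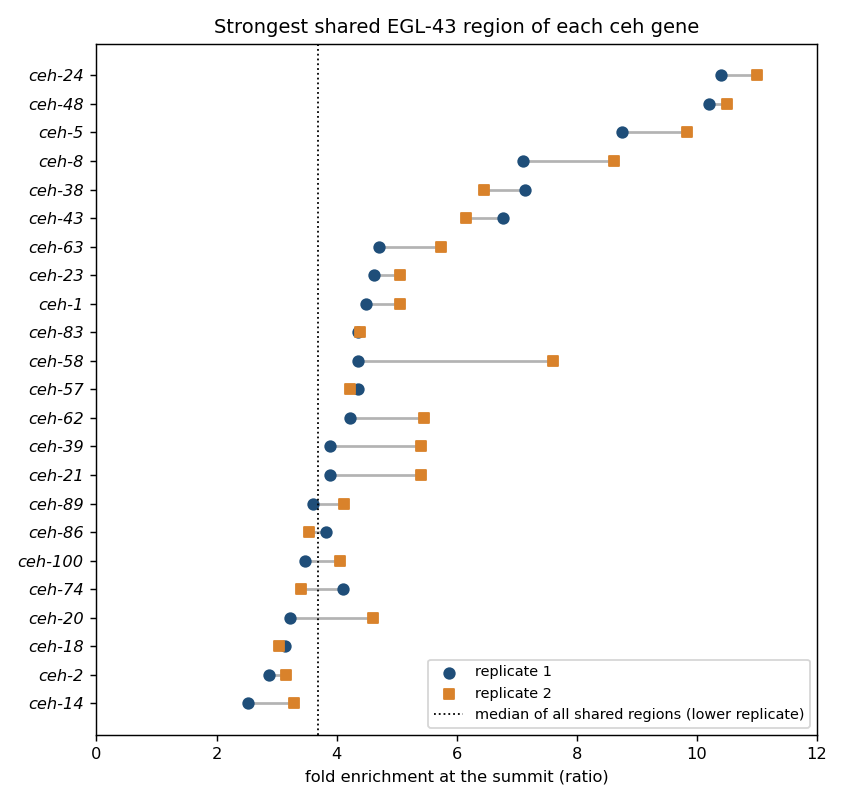
Fold enrichment at the summit (horizontal axis, a ratio without unit) of the strongest shared region of each of the 23 *ceh* genes that have one, with replicate 1 as a circle and replicate 2 as a square. *ceh-24* and *ceh-48* lie above 10 in both replicates, *ceh-14* has the lowest value of replicate 1 (2.53) and *ceh-18* that of replicate 2 (3.04), and the dotted line marks the median of 3.69 over the lower values of all shared regions.

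Among the CUT genes, 4 of 6 had a shared region, all of them of the ONECUT family, which encodes a homeodomain together with a cut domain. *ceh-48* (WBGene00015934), one of the CUT genes that act redundantly on genes used in all neurons, had the strongest region next to a *ceh* start. It spanned 6809505 to 6810231 of chromosome IV, reached 10.2 in replicate 1 and 10.5 in replicate 2, and ranked 195 of 7259. Its summits lay at 6809877 and 6809925, about 2183 bp upstream of *ceh-48*, and a noncoding RNA gene, C17H12.31, is annotated there. A second region, 3452 bp upstream in the body of C17H12.10, gave 2.87 and 3.54. The 2 regions of *ceh-48* thus differed far more from each other than the replicates did in either of them.

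*ceh-38* (WBGene00000459), another ONECUT gene, was the only one of the 6 genes above a fold enrichment of 6 with the summit at its own start. The region ran from 6951406 to 6951816 of chromosome II, its summit fell in exon 1, 42 bp inside the gene, and replicate 1 (7.13) was slightly above replicate 2 (6.46). *ceh-39*, *ceh-21* and *ceh-41* stand in a row on the minus strand of X. *ceh-39* takes part in counting X chromosomes during sex determination. A region at 1856192 to 1856575, 177 bp upstream of *ceh-39*, gave 3.89 and 5.41. This region was also counted for *ceh-21*, whose start is 3613 bp away, so that *ceh-21* had no region of its own. *ceh-41*, the last of the row, had none. A weaker region 2633 bp upstream of *ceh-39* (2.65 and 3.16) had an annotated tRNA gene within 50 bp of its summit and was nearer to the start of T26C11.8. *ceh-49* had no peak.

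The windows around 3 summits of these genes and of *ceh-24* are shown because they are those of the highest pair of regions and of a region credited to neighbouring genes. Each holds 50 bp on either side of the summit in the stronger replicate, on the plus strand of WBcel235 (RefSeq). Capitals mark the bases from the summit of one replicate to that of the other.
ceh-48 chrIV:6809875-6809975: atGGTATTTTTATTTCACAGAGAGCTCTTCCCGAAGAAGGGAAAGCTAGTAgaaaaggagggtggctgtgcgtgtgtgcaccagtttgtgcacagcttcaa
ceh-24 chrV:13808647-13808747: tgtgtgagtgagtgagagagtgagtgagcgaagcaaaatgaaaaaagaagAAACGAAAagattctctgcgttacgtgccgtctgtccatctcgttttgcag
ceh-39 and ceh-21 chrX:1856299-1856399: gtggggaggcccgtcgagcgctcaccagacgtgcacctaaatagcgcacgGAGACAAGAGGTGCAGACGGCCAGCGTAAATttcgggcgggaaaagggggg
The summits of the replicates were 48 bp apart in the first of these windows, 7 bp in the second and 30 bp in the third.

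Of the 16 ANTP genes, 6 had a shared region. *ceh-43*, the Distal-less gene, which acts in the anterior skin and in dopaminergic neurons, had 2 in an upstream stretch of 12889 bp without another protein-coding gene. The nearer one, from 4450271 to 4451460 of chromosome III, reached 6.77 in replicate 1 and 6.16 in replicate 2, with the summit 1165 bp upstream at a noncoding RNA gene, C28A5.8. The farther one, with the summit 2977 bp upstream, gave 5.49 and 4.39. Both regions were higher in replicate 1, which was so for only 7 of the 31 regions. Replicate 2 listed 2 further peaks without a partner, at 2.28 in intron 3 and at 3.21, 4270 bp upstream.

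*ceh-23*, an NK-like gene expressed in the AIY interneurons among others, had a region 501 bp upstream (chromosome III, 7838932 to 7839363) with a fold enrichment of 4.62 and 5.06, and another 4004 bp upstream with 3.22 and 3.29. Between and beyond these, replicate 2 alone had peaks of 2.78 and 3.04.

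The windows at the *ceh-23* summit next to the gene and at the outer *ceh-43* region show sites in long intergenic stretches whose nearest start is the *ceh* gene, with capitals from summit to summit as above.
ceh-23 chrIII:7839041-7839141: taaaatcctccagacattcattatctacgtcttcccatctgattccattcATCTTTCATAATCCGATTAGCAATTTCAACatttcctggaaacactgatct
ceh-43 chrIII:4452870-4452970: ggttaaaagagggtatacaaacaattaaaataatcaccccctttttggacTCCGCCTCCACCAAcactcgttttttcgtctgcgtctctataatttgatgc

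Most of the other ANTP regions lay closer to other genes. *ceh-24*, an NK2 gene active in vulval muscles and head neurons, had the highest value of all *ceh* genes, 10.4 in replicate 1 and 11 in replicate 2 (chromosome V, 13808378 to 13808928, rank 177). Its summit was 4534 bp upstream of *ceh-24* but 1460 bp from the start of *swan-1*. *ceh-5*, the Vax-like gene, lies inside *ocrl-1* on chromosome I. Its strongest region, at 8.75 and 9.83, was 214 bp from the start of *eat-16*. A second region at 9725197 to 9725686, with 5.94 and 6.33, had *ceh-5* as its nearest start, 1770 bp away. Its summit also lay in the body of *eat-16*, as well as in *ocrl-1*. Each replicate also had a weak peak at the start of *ceh-5*, of 2.26 in replicate 1 and 2.62 in replicate 2, which did not overlap. *ceh-1* had a region only at the outer edge of its window, with the summit 5022 bp upstream, in *nhr-45* (4.49 and 5.06). *ceh-2*, the Emx-like gene of the pharynx, had a single region, 735 bp upstream on chromosome I at 6051106 to 6051303. It was among the weakest of the set, with 2.87 and 3.16 and rank 6008, and its summit window touched a tRNA gene.

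**Figure D3:**
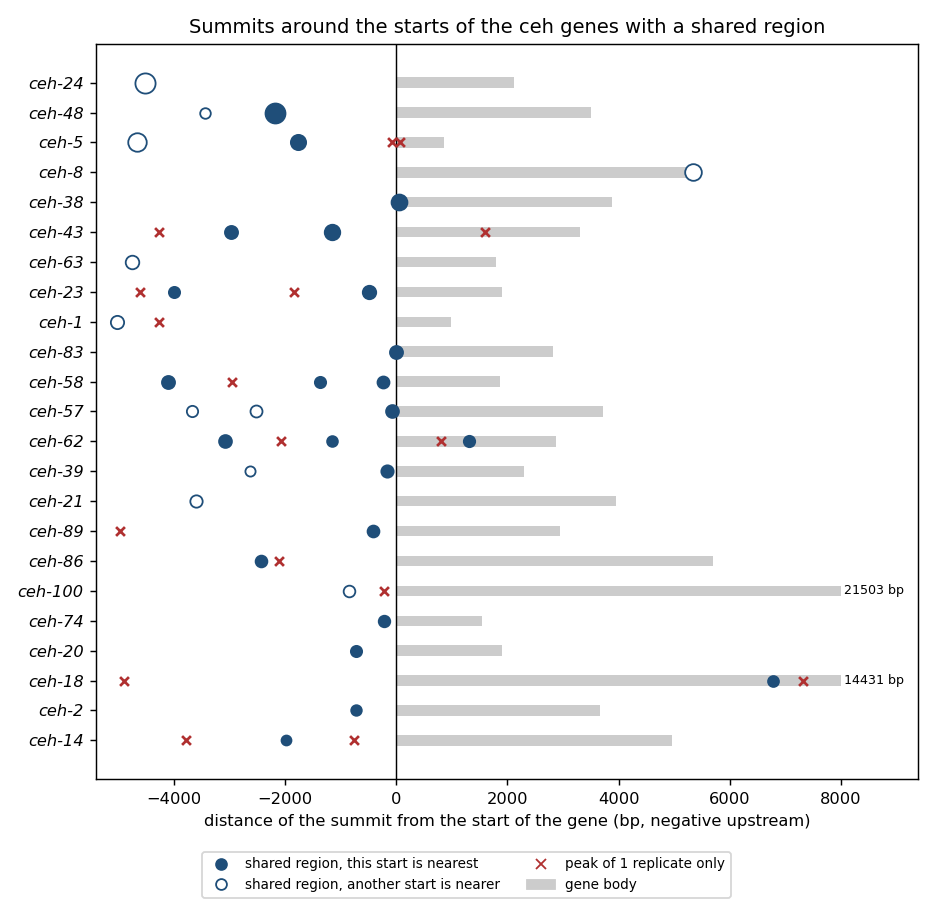
Distance of each summit from the start of the gene (horizontal axis, in bp, negative upstream) for the 23 *ceh* genes with a shared region. Filled circles are shared regions for which the start of that gene is the nearest, open circles are nearer to another start, the circle area follows the lower fold enrichment, crosses are peaks of 1 replicate, and grey bars are gene bodies, cut short where a length is written. Most circles lie left of 0, where the window reaches 5000 bp, and those of *ceh-8*, *ceh-18*, *ceh-38* and 1 of 3 of *ceh-62* lie in the body.

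Single members of the POU, LIM and TALE classes had 1 region each, all of modest height. *ceh-18*, the POU gene needed in gonadal sheath cells, was the only gene of the 3 with the region inside its body. It lay in intron 3 at 3850666 to 3851128 of X, with 3.14 in replicate 1 and 3.04 in replicate 2, and 1683 bp beyond the start of a shorter transcript. Replicate 2 had a further peak of 2.70 in the same intron. *ceh-6*, the other POU gene, which acts in the excretory cell and in neurons, had no peak.

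*ceh-14*, the LIM gene of several sensory neurons and interneurons, had the lowest of all values in shared *ceh* regions, 2.53 in replicate 1, with 3.29 in replicate 2, at 1984 bp upstream (X, 7534437 to 7534865, rank 6900). Replicate 2 had stronger peaks of 3.38 and 3.63 at 763 and 3785 bp upstream that replicate 1 lacked. The summit of the farther one lay in the body of *dpy-7* and was nearer to the start of that gene, at 1275 bp. *ceh-20*, a Pbx gene and partner of Hox proteins, gave 3.23 and 4.60 in a region 723 bp upstream (chromosome III, 6978915 to 6979312). Its Pbx relatives *ceh-40* and *ceh-60* had no peak. The homeodomain of *ceh-40* shares 73.3% of its residues with that of *ceh-20*.

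Of the 8 PRD genes, 1 had a shared region, *ceh-8*, the Rax-like gene. It lay at the far end of the gene, in exon 6 and 5346 bp from its start, with 7.11 in replicate 1 and 8.62 in replicate 2, and the start of *col-63* was 639 bp away. The PRD genes without a peak included *ceh-10*, *ceh-17*, *ceh-36* and *ceh-37*, which fix the identity of interneurons and sensory neurons. None of the 3 SINE genes had a shared region. *ceh-32* had peaks of replicate 2 at 2.95, 232 bp upstream, and at 2.78 in intron 3. *ceh-33* and *ceh-34*, neighbours on chromosome V whose homeodomains are 60% identical, had none, and *ceh-34* acts in the neurons of the pharynx.

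Of the 23 genes that were given no class here, 9 had a shared region. *ceh-57* and *ceh-58* are neighbours on the minus strand of chromosome II, and 4 regions lay at the pair. The nearest to *ceh-57*, 87 bp upstream at 10367239 to 10367528, gave 4.36 in replicate 1 and 4.23 in replicate 2. The start of *ceh-58* had a region 233 bp upstream (3.68 and 5.39) and another 1384 bp upstream (3.25 and 4.34), and both were also within 5000 bp of *ceh-57*. The strongest, 4109 bp upstream of *ceh-58* at 10373535 to 10374187, gave 4.36 and 7.60. Replicate 2 exceeded replicate 1 in the 3 regions nearest to *ceh-58*, and in the strongest by more than in any other *ceh* region.

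*ceh-62* had 3 shared regions, 3088 bp upstream (4.23 and 5.45), 1151 bp upstream (2.96 and 3.19) and in intron 1 (3.31 and 3.88). *ceh-83* had its region 13 bp upstream of the start, with 4.36 in replicate 1 and 4.39 in replicate 2, the closest upstream summit of any *ceh* gene. *ceh-74* (4.11 and 3.41, 225 bp upstream) and *ceh-89* (3.60 and 4.12, 430 bp upstream) also had their region close to the start. The summit of *ceh-74* lay in the body of *cest-2.3*. The region of *ceh-86* (3.83 and 3.54) was 2433 bp upstream. *ceh-63*, expressed in the DVC interneuron, had its region (4.70 and 5.74) 4762 bp upstream but 263 bp from the start of *tag-52*. The region of *ceh-100* (3.48 and 4.05) was 148 bp from the start of *lips-15*. Replicate 1 alone had a peak of 3.22 at 215 bp upstream of *ceh-100*, for which the start of *ceh-100* was the nearest. *ceh-100* is the longest of the genes, at 21503 bp, and had no shared region in its body.

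**Figure D4:**
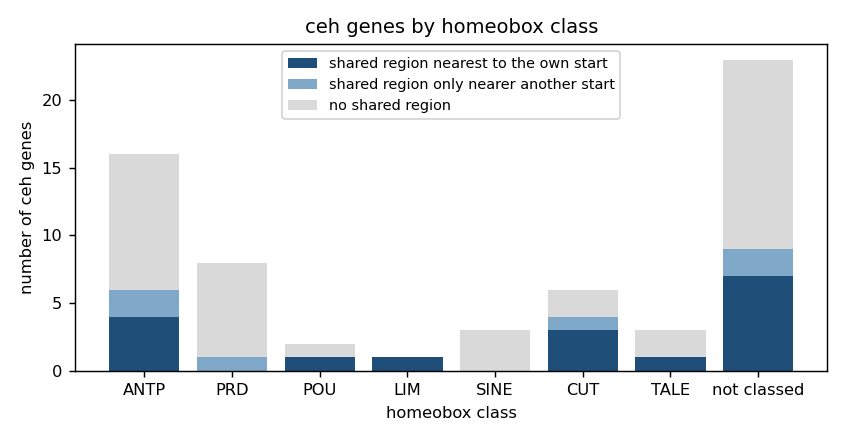
Number of *ceh* genes (vertical axis) in each homeobox class (horizontal axis), split into genes with a shared region nearest to their own start, genes with one only nearer to another start, and genes without. CUT genes had a shared region in 4 of 6 cases, of which 3 had one nearest to their own start. PRD genes had one in 1 of 8 cases, SINE genes in 0 of 3 and ANTP genes in 6 of 16. The share over all protein-coding genes was 34.4%, and no difference between classes was tested.

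By class, the counts of genes with a shared region were thus 6 of 16 for ANTP, 1 of 8 for PRD, 1 of 2 for POU, 1 of 1 for LIM, 0 of 3 for SINE, 4 of 6 for CUT, 1 of 3 for TALE and 9 of 23 for the rest, beside 34.4% of all protein-coding genes. ANTP genes (37.5%) and genes without a class (39.1%) lay near that share. The other classes hold 8 genes or fewer, and no difference between classes was tested. Of the 4 CUT genes, *ceh-21* and *ceh-39* share a region. Classes were assigned from general knowledge of the families. As a check, a stretch of 60 residues with the pattern of a homeodomain was sought in the coding sequences, and it was found in 43 of the 62 genes, among them 38 of the 39 classed ones. For each of the 37 of these that had another gene of the class, the most similar classed stretch was of that class. The pattern was widened after it had missed CUT and then TALE genes, so this is no independent check. Stretches were also compared without gaps, and for *ceh-36* (26.7% identical to its Otx relative *ceh-37*) and *ceh-41* (36.7% to *ceh-48*) they may be out of register.

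The 39 genes without a shared region had a median body of 2450 bp, beside 2944 bp for the 23 with one. Their nearest shared summit was between 2292 bp (*ceh-7*) and 192410 bp (*ceh-84*) from the start, with a median of 11246 bp, and it was more than 10000 bp away for 22 of them. These genes were chosen for having no shared region in their window, which itself raises the distance. All protein-coding genes without a shared region were not measured in this way. For all 62 genes the median was 6008 bp, and for all nuclear protein-coding genes 7446 bp. *ceh-30* and *ceh-31*, convergent BarH neighbours on X whose homeodomains are 96.7% identical, had no peak in either list. The same holds for *ceh-22*, *ceh-27* and *ceh-28*, NK2 genes of which *ceh-22* acts in pharyngeal muscle, for *ceh-16*, the *engrailed* gene of the seam cells, and for *ceh-51*, an NK2 gene of the mesoderm. The remaining genes without a peak were *ceh-7*, *ceh-9*, *ceh-12*, *ceh-19*, *ceh-45*, *ceh-53*, *ceh-54*, *ceh-75*, *ceh-76*, *ceh-79*, *ceh-81*, *ceh-82*, *ceh-84*, *ceh-87*, *ceh-90*, *ceh-91*, *ceh-92*, *ceh-93* and *ceh-99*. Absence from the lists does not show that a gene was not bound.

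The replicates differed little at the *ceh* regions. The log2 ratio of replicate 2 to replicate 1 was 0.17 at the median of the 31 regions, with an SD of 0.25, and over all 7259 shared regions the median was 0.13 and the SD 0.31. Replicate 2 was higher in 24 of the 31, and in 67.4% of all shared regions. Only the strongest region of *ceh-58*, with a log2 ratio of 0.80, fell outside the range of -0.49 to 0.75 that held 95% of all shared regions. The summits of the replicates were a median of 25.0 bp apart, as in all shared regions, at most 296 bp (*ceh-5*), and within 100 bp in 28 of 31. Both values of each of the 6 strongest genes were above 6, and of the 17 others only *ceh-58* had a value in that range, its 7.60 in replicate 2. By the lower value, *ceh-24* and *ceh-48*, and likewise *ceh-38* and *ceh-43*, differed by less than either SD of the log2 ratio between replicates. *ceh-5* (8.75) and *ceh-8* (7.11) differed by more than the SD of 0.25 but by less than that of 0.31. The difference between *ceh-43* (6.16) and *ceh-63* (4.70) exceeded both. In replicate 2 alone both pairs were closer, with 9.83 and 8.62 for the first and 6.16 and 5.74 for the second.

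The *ceh* windows held 34 peaks of replicate 1 and 49 of replicate 2. Of these, 2 (5.88%) and 18 (36.7%) had no partner in the other list, and over all peaks these shares were 10.4% and 32.2%. The 18 peaks of replicate 2 alone had a fold enrichment between 2.19 and 4.22, where the median over all peaks of replicate 2 was 3.71. The highest were those of *ceh-58* (4.22), *ceh-89* (4.15) and *ceh-86* (4.14), and those of *ceh-89* and *ceh-86* exceeded the shared region of the same gene in replicate 2 (4.12 and 3.54). All but those of *ceh-32* and *ceh-88* belonged to genes that also had a shared region.

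The median length of the *ceh* regions was 429 bp (363 bp in all shared regions), the median of the lower fold enrichment was 3.89 (3.69), and 16 of 31 ranked in the upper 50% of all shared regions. The GC content within 50 bp of the summit had a median of 44.6% (45.5%). An annotated noncoding gene touched this window in 7 regions (22.6%), beside 14.2% of all shared regions. In 6 the summit was in the body of another protein-coding gene, which was not counted for all shared regions.

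Short words known to be bound by mammalian EVI1 and by AP-1, the dimer that Fos proteins form, were searched on both strands within 50 bp of the summit. AGATGAG, the site of the C-terminal zinc fingers of mammalian EVI1, was found in 2 of 31 *ceh* windows (6.45%) and in 4.26% of the windows of all 7256 nuclear shared regions. ACAAGATA, the site of the N-terminal fingers, was in none of the *ceh* windows and in 0.276% of all. The AP-1 word TGACTCA, whose reverse complement is TGAGTCA, was in 1 (3.23%) and in 3.43% of all. At least 1 word was thus in 3 *ceh* windows (9.68%) and in 7.58% of all. These 3 windows are shown because they hold a word, marked in capitals.
ceh-58 and ceh-57 chrII:10369780-10369880: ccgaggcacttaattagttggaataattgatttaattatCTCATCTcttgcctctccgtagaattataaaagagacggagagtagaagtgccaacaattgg
ceh-18 chrX:3850969-3851069: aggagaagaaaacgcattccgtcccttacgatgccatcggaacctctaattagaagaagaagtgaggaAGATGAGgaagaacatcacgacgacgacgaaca
ceh-48 second region chrIV:6808606-6808706: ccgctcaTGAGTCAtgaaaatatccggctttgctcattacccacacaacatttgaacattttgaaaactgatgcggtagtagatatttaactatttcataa
CTCATCT is AGATGAG read on the other strand. None of these 3 regions was among the strong ones, as their lower fold enrichments were 3.68, 3.04 and 2.87. The windows were centred on the summit of the stronger replicate. In *ceh-18*, with summits 241 bp apart, and *ceh-48*, with summits 22 bp apart, the word was more than 50 bp from the other summit.

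For comparison, 37 homeobox genes that do not carry a *ceh* name were counted in the same way. Of these, 16 (43.2%) had a shared region, 12 (32.4%) one nearest to their own start and 8 (21.6%) one in the body, where the *ceh* shares were 37.1%, 27.4% and 9.68%. With 500 bp upstream the count was 9 (24.3%) and with 2000 bp it was 11 (29.7%). The 37 genes were longer, with a median body of 4889 bp. By the lower replicate, the strongest of them was *unc-39*, a SINE gene like *ceh-32*, with 11.9 in replicate 1 and 10.7 in replicate 2. No difference between the groups of genes was tested.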

How the data were processed

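EGL-43::GFP binding was profiled by ChIP-seq in 2 replicates of 1 condition, grouped by the sample labels. Per the study's methods and the submitters' processing notes, the authors aligned reads to ce11 (WBcel235) with BWA and called peaks with MACS2 on each replicate separately. The deposited lists give for each peak a fold enrichment (a ratio of reads at the summit to the estimated background), −log10 of the p-value and of the q-value, and a deposited score, which is derived from the q-value and was not used. Whether a control library was given to the caller is not given in the sources used here. The lowest −log10 q-values were 2.40 and 2.16, stricter than the stated false discovery rate of 0.05. The lists precede the later filtering of the study (splitting, a signal threshold, removal of blacklisted regions).

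Peaks were merged into regions (overlap of at least 1 bp). Each region was given its highest value in each replicate and ranked by the lower one. No peak ended beyond its chromosome in the WBcel235 sequence. Genes were those of Ensembl release 115 and exons those of the longest transcript. The position of a region was the summit of the stronger replicate. The genes described singly were the 15 with the highest fold enrichment, the 5 with most regions, the highest of each class, paralog groups, and those without shared regions. Members and lists were chosen with earlier results of these data known. Homeodomains were sought by a residue pattern in translated coding sequences, a pattern that was widened after seeing which members it missed. Because there was no control group, values were set beside the same values over all protein-coding genes or all shared regions. Merging and assignment were tested on simulated data. Alternatives were stricter q-values, overlap or summit distance, other upstream limits, the nearest start only, single replicates and other word windows. Python 3.11.15, numpy 2.4.6, scipy 1.17.1 and matplotlib 3.10.9 were used.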

Additional observations from a re-analysis of the deposited data

How the results depend on the processing

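The number of *ceh* genes with a shared region depended on the upstream limit. It was 12 at 500 bp (19.4%, beside 18.3% of all protein-coding genes) and 6 for the body alone (9.68%, beside 12.1%). So did the number of distinct regions, with 20 at 2000 bp, 12 at 500 bp and 6 for the body alone. Without replicate 2 there were 23 genes (37.1%, beside 36.6%), and without replicate 1 there were 25 (40.3%, beside 43.1%). Leaving out a replicate gave 34 to 49 regions and a median fold enrichment of 4.36 to 5.06 for the strongest region of a gene, the higher values without replicate 1. Stricter q-values left 22 genes (35.5%, beside 32.8% of all protein-coding genes). Stricter overlaps and stricter summit distances each left 21 (33.9%, beside 33.2%). The nearest start only left 17, and there the share differed most from that of all protein-coding genes (27.4% beside 19.8%). With 2000 bp upstream, the strongest summit lay upstream of the gene in 14 of 18 genes, against 20 of 23 with 5000 bp. This was not counted for all protein-coding genes. Of 76 values of single genes recomputed, 16 moved by more than 0.22 on the log2 scale, the SD of a single replicate over all shared regions. All of these came from leaving out a replicate or from a shorter upstream limit. The main value was the lower of the 2 replicates, so leaving out a replicate tended to raise it by construction. Among them was *ceh-14*, at 3.63 without replicate 1, in a peak nearer to the start of *dpy-7*. The AP-1 word was in 0 *ceh* windows at 25 bp (1.82% of all shared regions) and in 3 (9.68%) at 100 bp (5.47%). An EVI1 word was in 2 *ceh* windows (6.45%) at 25 bp (2.29% of all) and in 3 (9.68%) at 100 bp (7.25%). No paired analysis was possible because there was 1 group. The depth is unknown and no control library was analysed here, which limits how far a missing or a weak peak can be read.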
